A study of Homo sapiens with 8 samples.

Results

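POLN and HAUS3 are read in the same direction on the minus strand of chromosome 4 and share noncoding first exons. The locus described here is every splice junction there that matches an annotated intron of either gene, or shares a splice site with one on the same strand. It held 101 of the 654181 junctions in the series, of which 41 were annotated and 60 were not, with 8354 uniquely mapped reads over all libraries. The locus was chosen because POLN reads were higher with LMI070 in these same libraries, so values of POLN and HAUS3 are given as a description and carry no test. POLQ, with 125 junctions, and REV3L, with 107, are set beside it as genes of other specialised DNA polymerases, and were tested.

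The libraries came from HEK293, a cell line derived from human embryonic kidney. One group of 4 libraries (replicates 13 to 16) was from cells given 25 nM LMI070, also known as branaplam, a small molecule that changes the choice of splice sites. The other group of 4 (replicates 9 to 12) was from cells given DMSO, the solvent; no genetic change is listed for either group. Uniquely mapped junction reads numbered 20369466 to 36131054 in LMI070 libraries and 21975349 to 26716014 in DMSO libraries. Lane 7 carried LMI070 replicates 13 and 16 and DMSO replicates 11 and 12, and lane 8 the rest. When gene levels were compared by multidimensional scaling, LMI070 replicate 16 lay apart on the first axis (0.79) and DMSO replicate 12 on the second (-0.71). The other 6 libraries lay between -0.25 and 0.30 on both axes. Results for the locus are therefore also given without those 2 libraries. All 5 genes on a list of HEK293 markers had reads, with a summed level of 52.7 to 57.4 CPM with LMI070 and 48.1 to 55.5 CPM with DMSO. Most of that sum was NEFL, at a mean of 38.9 CPM with LMI070 and 38.1 CPM with DMSO. PAX2 was the lowest, at 0.677 CPM with LMI070 and 0.564 CPM with DMSO, and LHX1, NEFM and INA lay in between. CPM here means counts per 1000000 junction reads summed over the genes with enough reads to be tested, with TMM scaling between libraries. Reads in an intron shared by genes count for each of them in that total. The hepatocyte list summed to 0.0448 to 0.190 CPM with LMI070 and 0.0362 to 0.132 CPM with DMSO, with SERPINA1 at 0. The blood list summed to 0.286 to 0.897 CPM with LMI070 and 0.153 to 0.528 CPM with DMSO, with HBB at 0. The epithelium list summed to 0.523 to 1.26 CPM with LMI070 and 0.616 to 0.834 CPM with DMSO. The fibroblast list reached 30.1 to 38.6 CPM with LMI070 and 26.4 to 32.4 CPM with DMSO through COL1A1, COL3A1 and PDGFRA, while COL1A2, DCN and LUM were too low to be tested. The part of these markers in the results was not tested.

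POLN encodes DNA polymerase nu, an A-family polymerase of low fidelity that can copy past some damaged bases. Its nearest relative by sequence in human cells is POLQ, DNA polymerase theta, which carries a helicase as well and joins broken ends through short stretches of shared sequence. REV3L encodes the catalytic subunit of polymerase zeta, a B-family enzyme that extends DNA past lesions. HAUS3 has no part in DNA copying: it is a subunit of augmin, the complex that starts new microtubules from the sides of existing ones in the mitotic spindle. LMI070 is known from other work to favour certain 5′ splice sites, in particular those that follow an exon ending in GA.

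The 2 genes are laid out one inside the other. Over all annotated forms, POLN (ENSG00000130997.16) spans 2071918 to 2242121 on GRCh38, and HAUS3 (ENSG00000214367.7) spans 2227464 to 2242164. Exons and introns of POLN are numbered by its 26-exon form, POLN-210. Noncoding exons 1 and 2 of POLN, at 2242051 to 2242121 and 2241520 to 2241790, are also used by annotated HAUS3 forms. The HAUS3 start codon lies inside POLN intron 2, which is 12276 nt long. The POLN start codon lies in exon 3, at 2229099 to 2229243, and the last exon of HAUS3-201, at 2228349 to 2232160, runs across the whole of POLN exon 3 after the HAUS3 stop codon. An annotated POLN form joins a 5′ splice site within that last HAUS3 exon to POLN exon 3. The first coding bases of both genes are shown so that these 2 reading starts can be told apart, with the start codon in capitals.
POLN, chr4:2229202-2229231, minus strand: ATGgaaaattatgaggcattggtaggcttt
HAUS3, chr4:2240887-2240946, minus strand: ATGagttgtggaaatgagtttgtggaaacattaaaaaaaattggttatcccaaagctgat

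The RefSeq promoter table (GRCh38.p14) matched both symbols, and its rows for POLN and HAUS3 were identical, although the GENCODE 29 ends of the genes at this side differ (2242121 for POLN and 2242164 for HAUS3). The 207 bases before the first annotated start are shown because all reads that leave the shared exons begin downstream of them; capitals mark GGGCGG or its reverse complement CCGCCC.
POLN and HAUS3 promoter, chr4:2242165-2242371, minus strand: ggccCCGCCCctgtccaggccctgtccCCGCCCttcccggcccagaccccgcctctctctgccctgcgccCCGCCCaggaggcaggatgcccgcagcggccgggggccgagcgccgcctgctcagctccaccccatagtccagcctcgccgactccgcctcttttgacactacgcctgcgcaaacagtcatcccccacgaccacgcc
This window had 3 matches to GGGCGG or its complement, a motif held by 36.4% of the 35116 promoters of the table over the same length. CCAAT, also searched on both strands as ATTGG, had 0 matches and was held by 28.4% of promoters. TATAAA, searched also as TTTATA, had 0 matches and was held by 7.8%. None of the 3 motifs overlaps another in its letters, and no junction read gives the start of transcription directly.

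POLN reads were higher in every LMI070 library than in every DMSO library, as was so for 1.59% of the 14250 genes tested. Reads across its annotated introns numbered 1037, 689, 588 and 734 in LMI070 replicates 13, 14, 15 and 16, against 417, 484, 464 and 453 in DMSO replicates 9, 10, 11 and 12. On the CPM scale these were 27.6, 25.9, 27.98 and 32.9 with LMI070, against 18.3, 17.5, 17.7 and 19.9 with DMSO. The highest library of each group was the one that stood apart. The mean was 28.6 ± 3.01 CPM with LMI070 and 18.4 ± 1.07 CPM with DMSO (SD, n = 4 each), a 1.55-fold difference and a fitted log2 fold change of 0.63 (SE 0.07). Within lane 7 the log2 fold change was 0.68 and within lane 8 it was 0.59. Without the 2 libraries that stood apart it was 0.61. POLN ranked 60 of 14250 genes tested by log2 fold change, and it was among the 3 genes called higher, a share of 0.0211% of genes at an adjusted p under 0.05 (edgeR's quasi-likelihood test); 16 genes were called lower, 0.112%, which makes 0.133% in either direction. Nothing can be read from that place on the list, as POLN was picked for it. In bulk RNA a higher level per cell and a higher share of cells with the RNA cannot be told apart.

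HAUS3, which shares its first exons with POLN, was not higher with LMI070 on average. Its reads gave 14.2, 13.9, 14.7 and 12.96 CPM in LMI070 replicates 13, 14, 15 and 16, and 16.1, 15.4, 14.5 and 16.6 CPM in DMSO replicates 9, 10, 11 and 12. The groups overlapped, since LMI070 replicate 15 was above DMSO replicate 11; every LMI070 library was below every DMSO library in 2.58% of the genes tested. The means were 13.9 ± 0.737 CPM with LMI070 and 15.7 ± 0.911 CPM with DMSO (SD, n = 4 each), a log2 fold change of -0.17 (SE 0.08). It was -0.18 within lane 7, -0.14 within lane 8 and -0.10 without the 2 libraries that stood apart.

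Levels of the genes can be set side by side when reads are divided by the number of introns. POLN introns 3 to 25 averaged 1.19 ± 0.129 CPM per intron with LMI070 and 0.757 ± 0.0455 CPM per intron with DMSO. HAUS3-201 introns averaged 3.06 ± 0.136 CPM per intron with LMI070 and 3.46 ± 0.211 with DMSO. POLQ introns averaged 4.26 ± 0.0778 CPM per intron with LMI070 and 4.46 ± 0.160 with DMSO, and REV3L introns 2.59 ± 0.119 with LMI070 and 2.69 ± 0.137 with DMSO. POLN was thus the lowest of the 4 genes in both groups. The level of POLN per intron was 0.391 ± 0.0590 of that of HAUS3 with LMI070 and 0.219 ± 0.0101 of it with DMSO (SD, n = 4 each), and the libraries of the groups did not overlap.

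**Figure D1:**
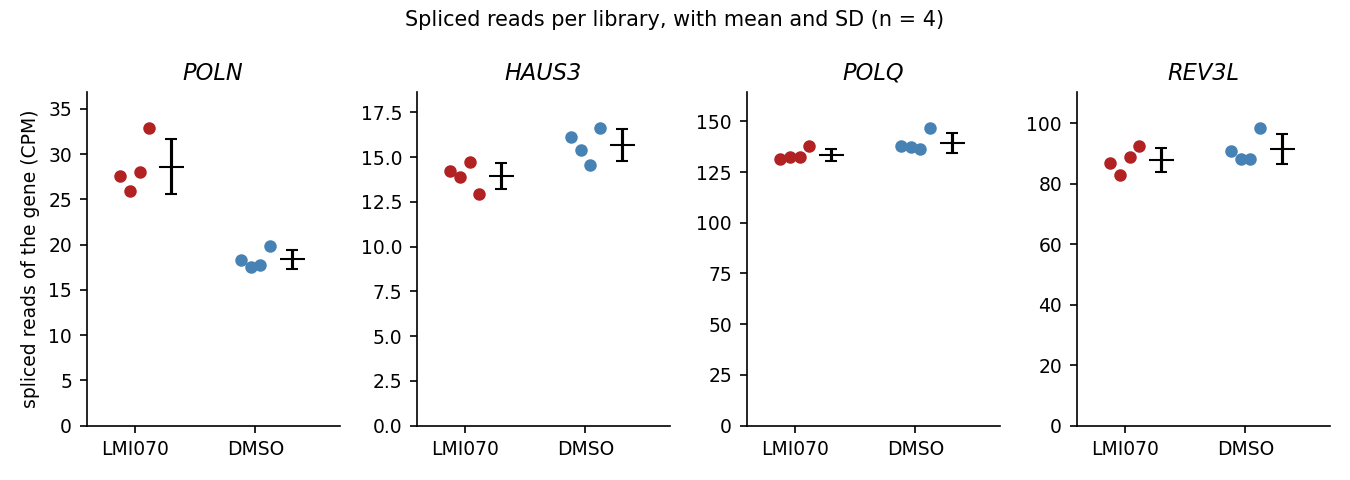
Spliced reads of POLN, HAUS3, POLQ and REV3L in CPM (vertical axis, from 0) for LMI070 and DMSO libraries; points are libraries, and the cross with a bar is the mean and SD of 4 libraries. POLN libraries lie between 25.9 and 32.9 CPM with LMI070 and between 17.5 and 19.9 CPM with DMSO, while the groups overlap in the other 3 genes.

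The reads that leave the exons shared by both genes overlapped between the groups, but most of them belong to HAUS3, so they say little about POLN. Junctions leaving the shared first exon had 22, 6, 16 and 3 reads in LMI070 replicates 13 to 16, and 12, 14, 13 and 12 reads in DMSO replicates 9 to 12. Their level was 0.427 ± 0.296 CPM with LMI070 and 0.514 ± 0.0153 CPM with DMSO. Junctions leaving the shared second exon had 50, 45, 45 and 36 reads with LMI070 and 48, 35, 42 and 45 with DMSO. Here the level was 1.69 ± 0.336 CPM with LMI070 and 1.74 ± 0.381 CPM with DMSO, and the groups overlapped in both sets (SD, n = 4 each).

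From the shared exons, most reads went on to HAUS3. Joins from them to the HAUS3 exon with the start codon took 157 reads with LMI070 and 160 with DMSO, a level of 1.5 ± 0.277 CPM with LMI070 and 1.64 ± 0.389 CPM with DMSO. Joins from them to POLN exon 3 took 46 reads with LMI070 and 35 with DMSO, a level of 0.426 ± 0.121 CPM with LMI070 and 0.359 ± 0.0933 CPM with DMSO. The part of these reads that went to POLN was 22.0% ± 4.08 with LMI070 and 17.98% ± 2.004 with DMSO (SD, n = 4 each), with overlapping libraries. The counts are small, and whether the choice between the 2 genes changed was not tested.

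HAUS3's own introns were alike in their direction. Intron 2, which follows the exon with its start codon, had 492 reads with LMI070 and 529 with DMSO, a level of 4.61 ± 0.449 CPM with LMI070 and 5.31 ± 0.227 CPM with DMSO. Intron 3 had 415 reads with LMI070 and 414 with DMSO, at 3.85 ± 0.213 CPM with LMI070 and 4.20 ± 0.659 CPM with DMSO. Intron 4 had 400 reads with LMI070 and 405 with DMSO, at 3.62 ± 0.779 CPM with LMI070 and 4.08 ± 0.521 CPM with DMSO. None of the 4 HAUS3 introns that could be fitted had all LMI070 libraries below all DMSO libraries, beside 1.8% of the 126782 junctions fitted. The join from the shared second exon to the HAUS3 start-codon exon had 139 reads with LMI070 and 138 with DMSO, at 1.34 ± 0.257 CPM with LMI070 and 1.41 ± 0.299 CPM with DMSO. Intron 1 of HAUS3-201 had 18 reads with LMI070 and 22 with DMSO, and an annotated join to a different last exon (2228459 to 2236383) had the same 18 reads with LMI070 and 22 with DMSO. Among 5 HAUS3 junctions with enough reads, the largest change in the share of a junction among those at its splice sites was 2.79 percentage points.

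POLN exon 3 was reached along several routes, none of them rich in reads. All junctions that enter it had 29, 17, 19 and 19 reads in LMI070 replicates 13 to 16 and 15, 19, 15 and 14 in DMSO replicates 9 to 12. Their level was 0.792 ± 0.115 CPM with LMI070 and 0.634 ± 0.0501 CPM with DMSO, a ratio of 1.25, and LMI070 replicate 14 (0.639 CPM) lay below DMSO replicates 9 and 10 (0.660 and 0.687 CPM). Entries from the shared exons made up 53.8% ± 12.2 of these reads with LMI070 and 56.7% ± 14.5 with DMSO. POLN intron 2 itself, from shared exon 2 to exon 3, had 36 reads with LMI070 and 28 with DMSO, at 0.344 ± 0.0925 CPM with LMI070 and 0.290 ± 0.124 CPM with DMSO. An unannotated join from the shared first exon straight to exon 3 had 10 reads with LMI070 and 7 with DMSO.

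A further set of entries left from inside HAUS3, and it had 37 reads with LMI070 and 28 with DMSO, at 0.355 ± 0.0937 CPM with LMI070 and 0.275 ± 0.0982 CPM with DMSO. Most of them used an annotated 5′ splice site in the last HAUS3 exon (intron 2229244 to 2231944), with 24 reads with LMI070 and 16 with DMSO. A neighbouring unannotated site (intron 2229244 to 2231834) had 10 reads with LMI070 and 6 with DMSO. The ratio of entry reads was 1.37 within lane 7 and 1.15 within lane 8.

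The exit from POLN exon 3 had more reads than its entry. Junctions leaving it had 66, 48, 46 and 36 reads in LMI070 replicates 13 to 16, against 32, 36, 33 and 34 in DMSO replicates 9 to 12. Their level was 1.84 ± 0.246 CPM with LMI070 and 1.37 ± 0.104 CPM with DMSO, a ratio of 1.35, and every LMI070 library was above every DMSO library. Entry reads were 43.4% ± 7.22 of exit reads with LMI070 and 46.6% ± 4.79 with DMSO (SD, n = 4 each). A read is counted at the exit whether or not exon 3 was joined to an exon before it. No read joined exon 4 to a site before exon 3, in 203 reads reaching exon 4 with LMI070 and 131 with DMSO. For counting error only, a count of 0 allows skipping in up to 1.48% of the reads reaching exon 4 with LMI070 and 2.29% with DMSO. Only RNA joined to an exon before exon 3 can skip it. Reads that showed such a join at the entry were fewer, 84 with LMI070 and 63 with DMSO. The limit among that RNA is therefore higher, and it was not computed.

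Past exon 3 the difference ran through the whole of POLN. Introns 3 to 25 together had 992, 662, 560 and 707 reads in LMI070 replicates 13 to 16, against 392, 458, 442 and 431 in DMSO replicates 9 to 12. Their level was 27.4 ± 2.96 CPM with LMI070 and 17.4 ± 1.05 CPM with DMSO, a ratio of 1.57, which was 1.62 within lane 7, 1.52 within lane 8 and 1.54 without the 2 libraries that stood apart. All 23 introns had a ratio above 1, from 1.24 in intron 5 to 2.25 in intron 15, with a median of 1.597. In 11 of them every LMI070 library was above every DMSO library, beside 1.63% of the 126782 junctions fitted; since POLN was picked for this contrast, its count is a description. All 20 POLN introns with enough reads to be fitted had a log2 fold change above 0, from 0.31 to 1.13 with a median of 0.72, beside 50.7% of all junctions above 0. These introns belong to 1 gene picked for its summed reads and are not independent, so their shared direction is also only a description.

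The introns with the most reads were the fourth and those around the middle of the gene. Intron 3, which leaves the exon with the POLN start codon, had 64, 48, 43 and 36 reads with LMI070, against 28, 36, 30 and 32 with DMSO. Its level was 1.79 ± 0.186 CPM with LMI070 and 1.27 ± 0.109 CPM with DMSO. Intron 4 had 238 reads with LMI070 and 165 with DMSO, at 2.23 ± 0.288 CPM with LMI070 and 1.67 ± 0.164 CPM with DMSO. In both, the libraries of the groups did not overlap. Intron 11 had 73, 51, 55 and 62 reads with LMI070 and 30, 36, 29 and 28 with DMSO, at 2.31 ± 0.448 CPM with LMI070 and 1.24 ± 0.0957 CPM with DMSO, a ratio of 1.87. Intron 12, a short intron of 323 nt, had 218 reads with LMI070 and 121 with DMSO, at 2.04 ± 0.163 CPM with LMI070 and 1.24 ± 0.265 CPM with DMSO.

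Intron 15 had the largest ratio of the 23. It had 28, 24, 20 and 25 reads in LMI070 replicates 13 to 16 and 8, 11, 11 and 11 in DMSO replicates 9 to 12, at 0.930 ± 0.155 CPM with LMI070 and 0.413 ± 0.0545 CPM with DMSO. Intron 16, one of the longest at 25497 nt, had 94 reads with LMI070 and 45 with DMSO, a ratio of 1.98, and intron 17 had 126 with LMI070 and 65 with DMSO, a ratio of 1.86. All 3 of these introns had each LMI070 library above each DMSO library. Introns 9, 10 and 13 did so too, with ratios of 1.40, 1.45 and 1.35. At the far end, intron 22 had 82 reads with LMI070 and 41 with DMSO, with no overlap. Intron 25, the last, had 30 reads with LMI070 and 19 with DMSO, at 0.267 ± 0.105 CPM with LMI070 and 0.199 ± 0.102 CPM with DMSO, and its libraries overlapped. Introns 5 to 8, 14, 18 to 21, 23 and 24 also overlapped, with ratios between 1.24 and 2.04.

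**Figure D2:**
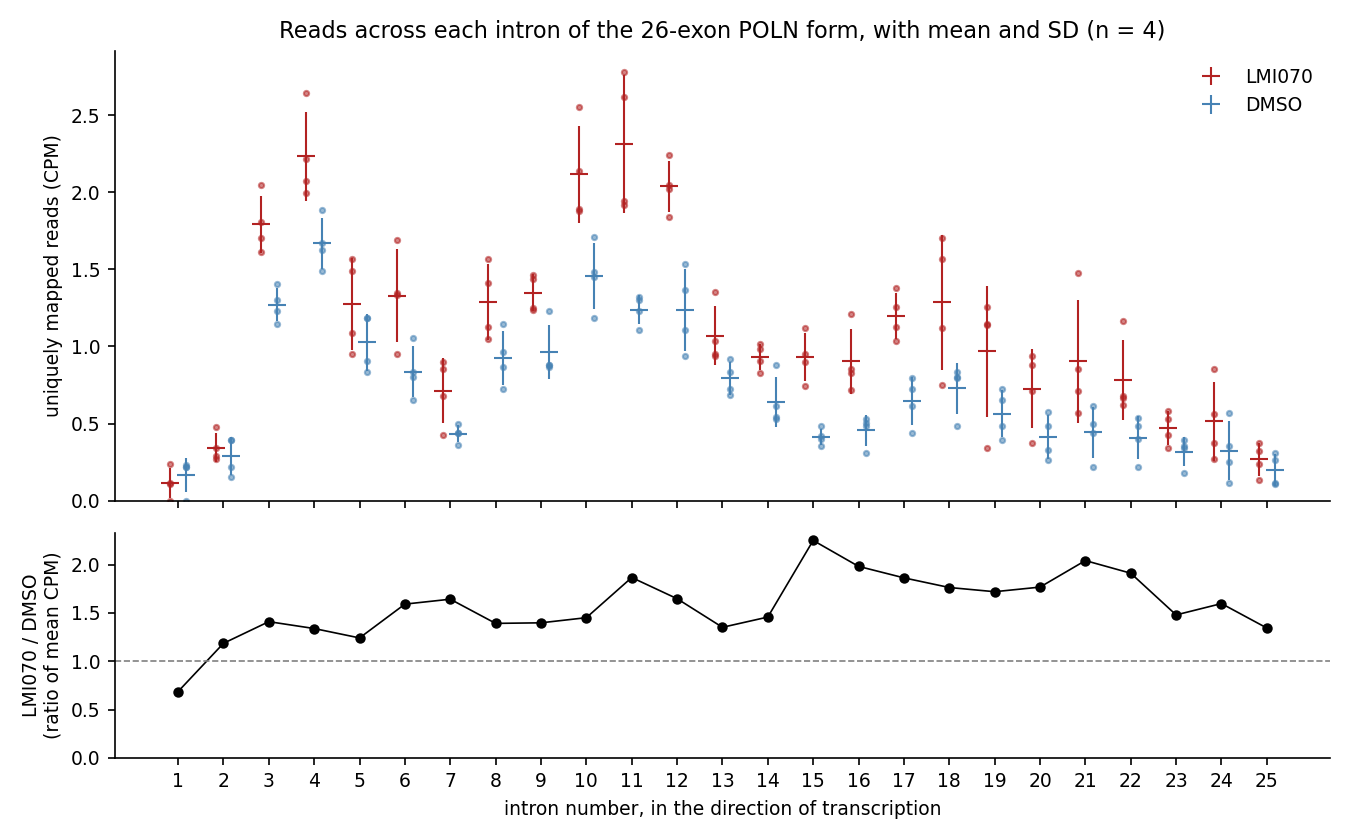
Uniquely mapped reads across introns 1 to 25 of the 26-exon POLN form, in order of transcription; the upper panel gives CPM from 0, with small points for libraries and a line for the mean and SD of 4 libraries (LMI070 left, DMSO right at each intron), and the lower panel gives the ratio of the group means. Introns 1 and 2 leave the exons shared with HAUS3 and have ratios of 0.686 and 1.19, and every intron from 3 to 25 is above 1. The ratios of introns 1 and 2 rest on few reads, with overlapping libraries. Intron 1 had 12 reads with LMI070 and 17 with DMSO, and intron 2 had 36 with LMI070 and 28 with DMSO.

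Grouped by place along the gene, a split made after the values had been seen, the ratio was smallest near exon 3 and larger further on. Early introns 3 to 9 gave 10.1, 10.1, 8.66 and 11.1 CPM with LMI070 and 7.04, 6.58, 6.73 and 8.16 CPM with DMSO, a ratio of 1.40. Middle introns 10 to 17 gave 10.2, 10.9, 11.8 and 13.1 CPM with LMI070 and 6.73, 6.65, 6.46 and 7.68 CPM with DMSO, a ratio of 1.67. Late introns 18 to 25 gave 6.07, 3.95, 6.14 and 7.53 CPM with LMI070 and 3.47, 3.33, 3.71 and 3.07 CPM with DMSO, a ratio of 1.74. The groups did not overlap in any of the 3 stretches. Middle introns made up 46.2% of the difference in CPM over introns 3 to 25, early introns 28.5% and late introns 25.2%. Of the 17.4 CPM over introns 3 to 25 with DMSO, early introns held 7.13 CPM, middle introns 6.88 CPM and late introns 3.40 CPM.

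The order of the early and late stretches was less sure than the difference itself. Within the late stretch, introns 18 to 22 had ratios of 1.72 to 2.04, while introns 23, 24 and 25 had 1.48, 1.60 and 1.34. Late reads per early read were 0.595 ± 0.143 with LMI070 and 0.482 ± 0.0745 with DMSO (SD, n = 4 each), and LMI070 replicate 14 (0.392) lay among the DMSO libraries. Middle reads per early read were 1.16 ± 0.156 with LMI070 and 0.967 ± 0.0304 with DMSO. The groups overlapped here too, as LMI070 replicate 13 (1.0105) lay just below DMSO replicate 10 (1.011). The late ratio was 2.01 within lane 7 and 1.48 within lane 8, and 1.54 without the 2 libraries that stood apart. The early ratio was 1.42 and 1.38 within lanes 7 and 8, and the middle ratio 1.65 and 1.70.

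Seen as shares, 67.0% ± 2.78 of all locus reads lay in POLN past exon 3 with LMI070, against 54.4% ± 1.28 with DMSO (SD, n = 4 each). The libraries ran from 65.3% to 71.1% with LMI070 and from 53.0% to 55.6% with DMSO. Without the 2 libraries that stood apart the shares were 65.6% ± 0.273 with LMI070 and 54.0% ± 1.18 with DMSO (SD, n = 3 each). HAUS3 took 30.9% ± 2.63 of locus reads with LMI070 and 43.4% ± 0.961 with DMSO, and entries into POLN exon 3 took 1.76% ± 0.187 with LMI070 and 1.77% ± 0.180 with DMSO. The locus total was itself higher with LMI070, at 44.9 ± 2.57 CPM against 35.9 ± 2.28 CPM with DMSO. A share can therefore fall or stay level without the same change in CPM.

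**Figure D3:**
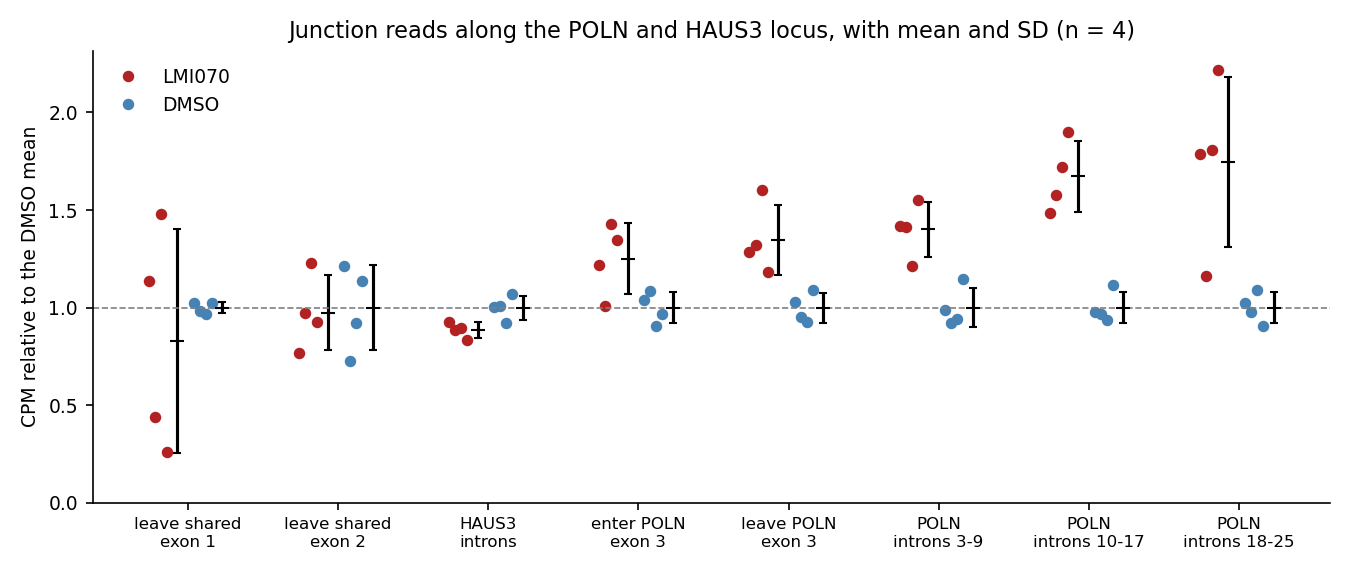
Reads of 8 sets of junctions along the locus, each as CPM divided by its own DMSO mean (vertical axis, from 0; dashed line at 1); points are libraries, with LMI070 left of DMSO, and black marks are the mean and SD of 4 libraries. The sets that leave the shared exons and HAUS3 introns have LMI070 means below 1, the entry to exon 3 is at 1.25, and the POLN sets run from 1.35 at the exit of exon 3 to 1.74 in introns 18 to 25.

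Within POLN, the choice of exons varied more between libraries than between groups. Exon 9, an annotated 69-nt exon at 2176266 to 2176334, was included in 80.4% ± 3.11 of reads with LMI070 and 78.6% ± 9.50 with DMSO; the unannotated junction that skips it had 35 reads with LMI070 and 26 with DMSO. An annotated junction that skips exons 14, 15 and 16 (2131291 to 2170678) had 31 reads with LMI070 and 20 with DMSO. Among 17 POLN junctions with enough reads, the largest change in share at the splice sites was 9.83 percentage points. A call required both a change of 10 points and an adjusted p under 0.05. Of the 17 junctions, 0 met either requirement, which is given as a description.

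Exons absent from GENCODE 29 were found in 3 POLN introns, and they were chosen for mention after their values were seen. The one with the most reads, in intron 7 (2186789 to 2186862, 74 nt), was included in 37.2% ± 15.5 of reads with LMI070 and 41.3% ± 17.3 with DMSO (SD, n = 4 each). Its upstream junction had 51 reads with LMI070 and 34 with DMSO, and its downstream junction 37 with LMI070 and 33 with DMSO. An exon of 154 nt in intron 3 (2222927 to 2223080) was at 4.21% ± 2.05 with LMI070 and 5.44% ± 3.76 with DMSO. It had 4 reads upstream with LMI070 and 9 with DMSO, and 12 reads downstream with LMI070 and 5 with DMSO. An exon of 118 nt in intron 11 (2171655 to 2171772) was at 5.13% ± 2.29 with LMI070 and 3.46% ± 2.86 with DMSO. Its upstream junction had 12 reads with LMI070 and 1 with DMSO, and its downstream junction 15 with LMI070 and 8 with DMSO, so its 2 ends gave different contrasts on few reads. Junctions outside these exons with at least 10 reads were an unannotated site near the start of exon 16 (2156827 to 2157857), with 9 reads with LMI070 and 5 with DMSO, and one in intron 19 (2124888 to 2128112), with 15 reads with LMI070 and 7 with DMSO. All unannotated POLN junctions together had 2.46 ± 0.473 CPM with LMI070 and 1.96 ± 0.322 CPM with DMSO, a ratio of 1.25, with overlapping libraries.

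The last bases of POLN exons are shown because the 5′ splice sites that LMI070 is known to favour follow exons ending in GA. Capitals mark the last 3 bases, and exons 4 and 5, the next 2 after the start-codon exon, are given for comparison.
POLN exon 3 end, chr4:2229099-2229119, minus strand: cttggggaaagagtacagAGA
POLN exon 4 end, chr4:2213047-2213067, minus strand: actcaatcaccagaaaaaAAG
POLN exon 5 end, chr4:2207987-2208007, minus strand: acccagctaggagctgacCAG
Exon 3 was the only 1 of the 25 POLN-210 exons with a 5′ splice site that ended in GA, and it ended in AGA. Over the annotation, 5220 of 292697 exon ends (1.78%) had GA and 2148 (0.734%) had AGA. HAUS3-201 had 0 of 4 exon ends with GA, POLQ-204 had 1 of 30 and REV3L-206 had 0 of 33. The comparison of exon ends was chosen after the values were seen. The ratio was 1.25 at the entry of exon 3 and 1.35 at its exit, and whether the end of exon 3 bears on the higher reads was not tested. The intron side of these splice sites was not read here, and reads within introns are not in junction tables, so retained introns were not measured.

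POLQ did not follow POLN. Its level was 131, 132, 132 and 138 CPM in LMI070 replicates 13 to 16 and 138, 137, 136 and 147 CPM in DMSO replicates 9 to 12. The highest library of each group was again the one that stood apart. The means were 134 ± 3.01 CPM with LMI070 and 140 ± 4.91 CPM with DMSO (SD, n = 4 each), and the log2 fold change of -0.06 (SE 0.04) did not pass the test (edgeR's quasi-likelihood test, adjusted p = 0.611). REV3L was at 87.0, 82.9, 88.9 and 92.3 CPM with LMI070 and 90.8, 88.1, 88.4 and 98.5 CPM with DMSO. Its means were 87.8 ± 3.95 CPM with LMI070 and 91.5 ± 4.88 CPM with DMSO, and its log2 fold change of -0.06 (SE 0.05) did not pass either (adjusted p = 0.692, same test). Both genes had far more reads than POLN, so these values rest on less counting error.

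No single intron of POLQ or REV3L passed the test of junction counts. POLQ had 30 introns tested, with log2 fold changes from -0.28 to 0.09 and a median of -0.05. REV3L had 32, from -0.39 to 0.18 with a median of -0.05. None was called by edgeR's quasi-likelihood test over all junctions, where 0.192% of 126782 junctions were called, and 2 and 1 of them had an unadjusted p under 0.05. The share of junctions at their splice sites was tested for 31 junctions in each gene, and none was called, beside 0.071% of the 129500 junctions tested. At an unadjusted p under 0.05 there were 0 in POLQ and 1 in REV3L, and the largest changes were 3.79 and 4.22 percentage points. Every LMI070 library was above every DMSO library in 0 introns of both genes, and below in 0 of POLQ and 1 of REV3L, beside 1.63% above and 1.8% below over all junctions fitted.

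Other genes of the same pathways were measured in the same fit, where 0.133% of all genes tested were called. With so small a share, the absence of calls in short lists says little about them. Among 14 specialised DNA polymerases, 13 could be tested and DNTT was too low. POLN apart, 0 of 12 were called higher and 0 lower, with a median log2 fold change of -0.02, beside a median of 0.00 over all 14250 genes, of which 1431 had an unadjusted p under 0.05. POLI, a lesion bypass polymerase, was the 1 of the 12 with an unadjusted p under 0.05 (log2 fold change -0.27, SE 0.09, adjusted p = 0.351). The members with the most reads besides POLQ were POLG, the mitochondrial DNA polymerase, at 0.08 (SE 0.05), and MAD2L2, a subunit of polymerase zeta, at 0.02 (SE 0.05). Of 12 replicative polymerase subunits none was called, with a median of 0.01, and 3 had an unadjusted p under 0.05. POLE, the catalytic subunit of polymerase epsilon, was at 0.11 (SE 0.04), POLA1 at -0.04 (SE 0.04) and POLA2 at 0.03 (SE 0.04).

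Of 9 genes for PCNA ubiquitination, which recruits bypass polymerases to stalled forks, none was called, beside 0.133% of all genes tested. Their median was -0.03, and 1 had an unadjusted p under 0.05, beside 1431 of all 14250 genes. HLTF, a ubiquitin ligase and DNA translocase of this list, came nearest, at 215 ± 6.15 CPM with LMI070 and 248 ± 15.5 CPM with DMSO, a log2 fold change of -0.21 (SE 0.04, adjusted p = 0.0645). It was called lower by DESeq2 (log2 fold change -0.21, adjusted p = 0.0164), and by edgeR within lane 7 alone (-0.26, adjusted p = 0.0127) and lane 8 alone (-0.15, adjusted p = 0.00138). PCNA, the sliding clamp, was at -0.05 (SE 0.04) and USP1, which removes ubiquitin from it, at -0.03 (SE 0.05). Of 15 genes of theta-mediated end joining and crosslink repair none was called, with a median of -0.04, and 2 had an unadjusted p under 0.05. PARP1 was at 0.04 (SE 0.03), FANCI at -0.05 (SE 0.04) and FANCD2 at -0.01 (SE 0.04).

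On the side of HAUS3, none of the 7 other augmin subunits was called, beside 0.133% of all genes tested. Their median log2 fold change was -0.03, and 1 had an unadjusted p under 0.05, beside 1431 of all 14250 genes. HAUS6, the subunit that binds the γ-tubulin ring complex through NEDD1, was at -0.08 (SE 0.05), HAUS5 at 0.07 (SE 0.06) and HAUS1 at -0.09 (SE 0.06). None of the 11 genes of the γ-tubulin ring complex, which seeds microtubules, was called, with a median of -0.02, and 3 had an unadjusted p under 0.05. TUBG1, γ-tubulin itself, was at 0.11 (SE 0.04, adjusted p = 0.401), TUBGCP2 at -0.07 (SE 0.04) and NEDD1 at -0.02 (SE 0.05).

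Of 32 annotated genes within 500 kb of the locus, 15 could be tested and none was called, beside 0.133% of all genes tested. Their median log2 fold change was 0.00, with 8 of the 15 above 0, and 2 had an unadjusted p under 0.05. NSD2, a histone methyltransferase gene, was at 205 ± 20.6 CPM with LMI070 and 190 ± 1.90 CPM with DMSO, and LETM1, a mitochondrial inner membrane protein gene, at 137 ± 4.92 CPM with LMI070 and 131 ± 11.1 CPM with DMSO. TACC3, a spindle protein gene, was at 183 ± 31.0 CPM with LMI070 and 152 ± 12.2 CPM with DMSO, a log2 fold change of 0.25 (SE 0.12, adjusted p = 0.538). Within lane 7 alone TACC3 and NSD2 were called higher (0.55 and 0.23, adjusted p = 3.85e-08 and 0.0302), which rests on 2 libraries a group, with LMI070 replicate 16 and DMSO replicate 12 among them.

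**Figure D4:**
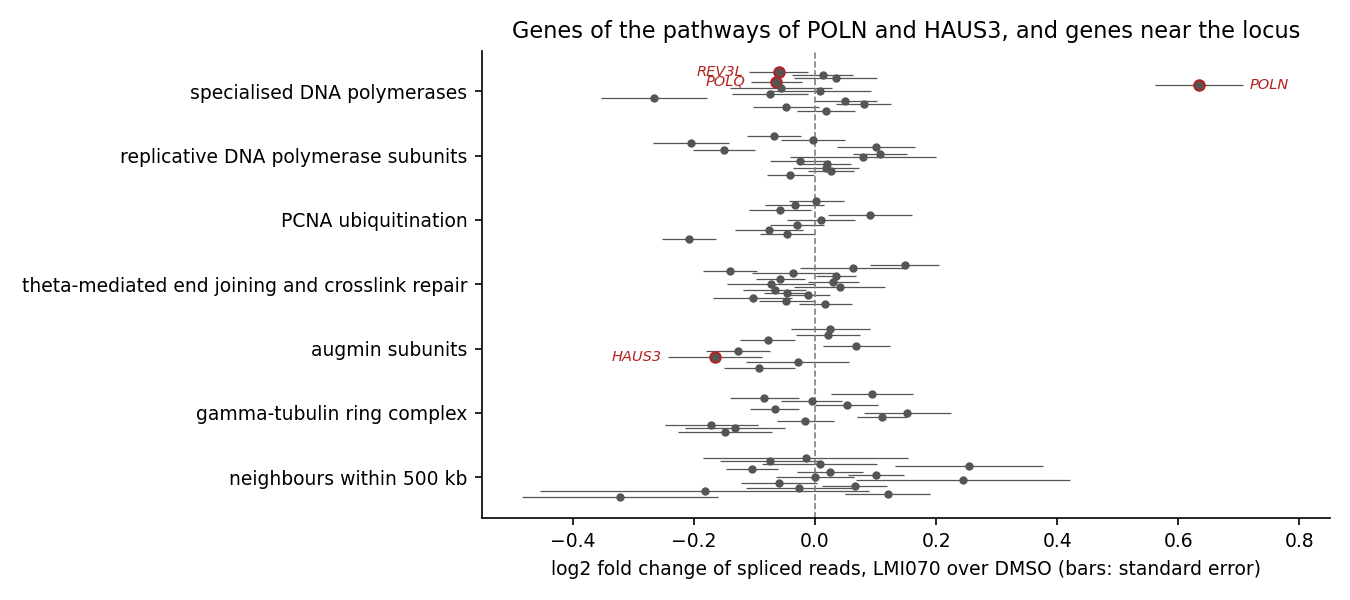
Log2 fold change of spliced reads, LMI070 over DMSO (horizontal axis), with standard errors as bars, for each tested gene of 6 pathway lists and for genes within 500 kb of the locus; POLN, HAUS3, POLQ and REV3L are named in red. POLN lies at 0.63, and the other points lie between -0.32 and 0.25.

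The genes whose levels over the 8 libraries were most like those of POLN were found among 10905 genes with a mean of at least 100 reads, by the root mean square difference of centred log2 CPM. They were HEBP1 (a difference of 0.136 in log2 CPM), DNAH11 (0.151), RAB26 (0.158), SMN2 (0.179) and ZC3H3 (0.181), where POLN itself varied by 0.332 about its mean. Their log2 fold changes ran from 0.35 to 0.50 and none passed the test, the smallest adjusted p being 0.0612 in DNAH11. SMN2 is nearly identical to SMN1, so its uniquely mapped reads are uncertain. For HAUS3, which varied by 0.109 about its mean, the 5 nearest genes were MAN1A2 (0.0344), WBP4 (0.0352), ADAMTS18 (0.0359), EIF2B3 (0.0402) and BRAP (0.0405). Since POLN was chosen for its difference between the groups, likeness to it is a description of these libraries.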

How the data were processed

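Junctions were deposited as 1 table per library, whose values, per the file headers and the aligner's format, are raw counts of reads that cross each splice junction, uniquely or multiply mapped, with no normalization by the authors. Per the labels, RNA was prepared with a stranded total RNA kit with depletion of ribosomal RNA. Per the submitters' processing notes, the aligner was STAR 2.6.0c and the genome build GRCh38; read filters and alignment settings are not given in the sources used here. Values are of uniquely mapped reads, and reads that cross no junction are not part of these tables.

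Junctions were matched to introns of GENCODE 29, and the deposited annotation mark gave the same answer for 99.8% of them. Reads per gene were summed over its annotated introns; introns shared by POLN and HAUS3 count in both. edgeR 4.0.16 (R 4.3.3) was used with TMM scaling, its expression filter, lane and treatment as terms, the quasi-likelihood F test and Benjamini-Hochberg adjustment over all 14250 genes or 126782 junctions, at 0.05. A change in the share of a junction at its splice sites also had to reach 10 percentage points. The fits were tested on simulated data with known, large changes in features with many reads. Smaller changes and junctions with few reads were not covered by that. Alternatives were DESeq2 1.42.0 as test and as scaling, no filter, no lane term, each lane alone, multiply mapped reads added, introns of a single gene, and each library left out.

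The members and lists were chosen with earlier results of these data known. The rule for named features took the 4 genes, POLN and HAUS3 junctions with at least 20 reads (10 if unannotated), called list members or the 3 with most reads, and the 5 genes most like POLN and HAUS3 among those with a mean of 100 reads (0.1 CPM added before logs); POLI, HLTF and DNAH11 were named after their values were seen. This named 33 of 41 annotated and 11 of 60 unannotated junctions; the rest had at most 15 and 7 reads. Counts of libraries within a group were further apart than counting error allows (chi-square per degree of freedom 1.15 to 2.95 with LMI070 and 1.17 to 2.24 with DMSO). Nothing says that they came from separate cultures, so p-values measure only the spread between these libraries.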

Additional observations from a re-analysis of the deposited data

Results flagged for a closer look

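Among 52 sets of 4 libraries examined for a library far from the other 3, where chance would flag about 1 in 20, 4 had such a library, and all 4 were libraries that stood apart in the scaling of all genes. With LMI070, the share of locus reads in POLN past exon 3 was 71.1% in replicate 16 and 65.3% to 65.9% in the others. The level of POLN per intron relative to HAUS3 was 0.478 in replicate 16 and 0.353 to 0.375 in the others. POLQ was at 138 CPM in LMI070 replicate 16 and at 131 to 132 CPM in the others. In DMSO replicate 12, POLQ was at 147 CPM, and at 136 to 138 CPM in the others.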

How the results depend on the processing

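No paired analysis was possible because the groups share no replicate number. The log2 fold change of POLN stayed between 0.58 and 0.68 and that of HAUS3 between -0.20 and -0.10 over 17 alternatives each; POLQ (-0.08 to -0.03) and REV3L (-0.09 to -0.02) never passed, with adjusted p of 0.585 to 0.905 and 0.594 to 0.948. Genes called higher and lower numbered 3 and 16. They numbered 8 and 25 with DESeq2, 163 and 57 without a filter, 537 and 147 in lane 7 alone, 10 and 37 in lane 8 alone, and 2 to 5 and 8 to 17 with a library left out; the cause was not tested. Without DMSO replicate 12 there were 5 higher, and without LMI070 replicate 14 there were 8 lower. Of the pathway lists, 2 genes were called higher (XRCC1, POLE) and 3 lower (HLTF, POLE4, MZT1) in lane 7 alone, and 1 lower (HLTF) with DESeq2, without a filter and in lane 8 alone; 2 neighbours were higher in lane 7. No POLQ or REV3L junction was called under any alternative run. With annotated junctions alone, POLN past exon 3 took 52.4% of DMSO reads, HAUS3 45.8%, and entries into POLN exon 3 took 1.35% with LMI070 and 1.32% with DMSO. With a library left out, the ratio was 1.19 to 1.33 at the entry, 1.26 to 1.40 at the exit, 1.35 to 1.47 in early, 1.596 to 1.74 in middle and 1.59 to 1.94 in late introns. Depth limits the sets with few reads, such as the 47 with LMI070 and 51 with DMSO that leave the shared first exon. The alternative without the 2 libraries that stood apart was chosen after seeing the data.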
